A study of Mus musculus with 40 samples.

Results

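The collapsin response mediator proteins are a family of 5 mouse genes, *Crmp1*, *Dpysl2*, *Dpysl3*, *Dpysl4* and *Dpysl5*, and were the members described here, 5 of the 26411 genes counted in each library. They were chosen from the results of the E9.5 embryos, in which several of them had been found lower in mutants of *Kat6a* and *Kat6b*, the genes of 2 related histone acetyltransferases. Differences of these genes between the E9.5 genotypes are therefore given as a description. Counts of members past a threshold in these comparisons describe the choice and test nothing, and the share of all genes past the same threshold is printed beside the first such count of each comparison. Rows were found by gene symbol in every library, and all 5 members passed the filter on low counts in the embryos.

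Bulk RNA-sequencing had been performed on 24 whole E9.5 embryos, 4 of each of 6 genotypes, and on LSK cells sorted from E14.5 fetal liver, with 16 samples, 4 of each of 4 genotypes. LSK cells are lineage marker-negative, SCA-1-positive, KIT-positive blood stem and progenitor cells. The embryos were wild type at both genes (WT), *Kat6a* cfd/cfd with WT *Kat6b* (*Kat6a*-/-), *Kat6b* dec/dec with WT *Kat6a* (*Kat6b*-/-), homozygous for *Kat6a* G656E (*Kat6a* E/E), homozygous for *Kat6b* G577E (*Kat6b* E/E), or homozygous for both point mutations at once (the double point mutant). For LSK cells the genotypes were WT, either single point mutant and the double point mutant. The point mutations change a glycine in the acetyl-CoA binding site, whereas the cfd and dec alleles lack exons. Per the study's methods, the embryos were male and chosen for a like external appearance, the point mutants were kept on a C57BL/6J background and the strains with the cfd and dec alleles on C57BL/6, and the LSK cells came from 4 fetuses of each genotype. The 24 embryos came from 17 litters, and none of the *Kat6b* E/E or double point mutant embryos shared a litter with a WT embryo, so that these genotypes were not compared with WT within a litter.

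Collapsin response mediator proteins are cytosolic phosphoproteins of developing neurons that resemble the pyrimidine-degrading enzyme dihydropyrimidinase. They bind tubulin and other cytoskeletal proteins, and they act downstream of semaphorin 3A, a secreted cue that makes growth cones collapse after the kinases CDK5 and GSK3B phosphorylate these proteins. In the embryo they mark neurons that extend axons, and *Dpysl2* is also used by many other cell types. *Dpysl2* encodes CRMP2, *Dpysl3* CRMP4, *Dpysl4* CRMP3 and *Dpysl5* CRMP5.

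The proteins translated from the canonical GENCODE transcripts had 572 residues for *Crmp1*, *Dpysl2* and *Dpysl4*, 570 for *Dpysl3* and 564 for *Dpysl5*. *Crmp1* and *Dpysl2* shared 76.2% of aligned residues, *Dpysl2* and *Dpysl3* shared 76.5%, and *Crmp1* and *Dpysl4* shared 69.2%. *Dpysl5* was the most distant member, with 50.3% to 51.5% identity to the other 4. Its identity to dihydropyrimidinase itself (*Dpys*) was 57.7%, and that of the other members lay between 58.3% and 59.6%. *Crmp1* and *Dpysl5* lie on chromosome 5 of GRCm39, on the plus strand, at chr5:37399284-37449481 and chr5:30868908-30956719. *Dpysl2* lies at chr14:67040313-67148522 on the minus strand and *Dpysl4* at chr7:138665875-138682620 on the plus strand. No stretch of 50 bases of the canonical transcript of a member occurred in a transcript of another gene read in the same direction (0% for each member). Other transcripts of the members and the opposite strand were not searched. Within this search, reads of the paralogs could be told apart. Reads from overlapping genes could not, because the libraries did not keep strand. Exons of other genes covered 6.53% of the exonic bases of *Crmp1* (*Evc*), 8.57% of *Dpysl2* (*Pnma2* and a long non-coding RNA), 3.19% of *Dpysl5*, 0.442% of *Dpysl3* and none of *Dpysl4*.

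Windows of 300 bases around a transcription start, most of them upstream of it, were given by RefSeq (GRCm38.p6) for 2 of the 5 members, *Crmp1* with 2 starts and *Dpysl5* with 1. *Dpysl2*, *Dpysl3* and *Dpysl4* had no entry. The windows are shown because these are the starts of genes that were lower together in *Kat6a*-/- embryos. They are written 5′ to 3′ on the plus strand with each CpG in capitals.
*Crmp1*, first start, chr5:37241808-37242107: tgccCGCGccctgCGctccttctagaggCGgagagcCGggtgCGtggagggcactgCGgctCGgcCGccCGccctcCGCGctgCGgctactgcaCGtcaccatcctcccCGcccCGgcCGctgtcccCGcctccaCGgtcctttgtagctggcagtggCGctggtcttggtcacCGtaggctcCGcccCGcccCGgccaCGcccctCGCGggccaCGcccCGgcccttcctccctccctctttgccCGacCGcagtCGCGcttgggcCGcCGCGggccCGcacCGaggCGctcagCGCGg
*Crmp1*, second start, chr5:37245514-37245813: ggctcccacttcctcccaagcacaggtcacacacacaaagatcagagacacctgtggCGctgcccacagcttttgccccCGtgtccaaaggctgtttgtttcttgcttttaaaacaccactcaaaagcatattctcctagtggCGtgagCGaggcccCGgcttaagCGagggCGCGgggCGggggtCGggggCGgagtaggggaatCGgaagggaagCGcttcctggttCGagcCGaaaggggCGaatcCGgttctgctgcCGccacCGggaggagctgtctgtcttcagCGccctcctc
*Dpysl5*, chr5:30711314-30711613: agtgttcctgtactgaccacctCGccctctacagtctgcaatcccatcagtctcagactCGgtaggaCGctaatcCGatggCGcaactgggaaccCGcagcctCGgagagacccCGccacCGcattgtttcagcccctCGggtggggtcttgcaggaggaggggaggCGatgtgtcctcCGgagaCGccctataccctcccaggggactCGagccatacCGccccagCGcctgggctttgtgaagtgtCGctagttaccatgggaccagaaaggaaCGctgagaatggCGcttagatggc

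The first *Crmp1* window held 41 CpG, more than 96.5% of the 32851 promoter windows in the table, against 20 at the second *Crmp1* start and 19 at *Dpysl5*. The median over all windows was 7. Of 5 motifs searched on both strands, GGGCGG (the GC box) occurred 5, 2 and 1 times in the 3 windows, and 35.7% of all windows held it. CAGCTG (an E-box, in 16.3% of all windows), CACGTG (an E-box, 7.15%), CCAAT (37.4%) and TATAAA (13.6%) did not occur in the 3 windows. These are matches of letters and not known binding sites.

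In WT embryos the 5 members summed to 131 ± 8.44 RPKM (CPM per kilobase of gene length, mean ± SD, n=4). Per length, *Dpysl3* was highest at 36.1 ± 2.05 RPKM, followed by *Crmp1* at 30.1 ± 4.03, *Dpysl5* at 29.3 ± 0.215, *Dpysl4* at 22.4 ± 2.28 and *Dpysl2* at 13.2 ± 0.964. The libraries of the first 3 overlapped with their neighbours in this order, whereas *Dpysl5* (29.1 to 29.6) lay above *Dpysl4* (19.3 to 24.5) and *Dpysl4* lay above *Dpysl2* (12.4 to 14.6) in every WT library. *Dpysl5* and *Crmp1* changed places in the mean order of all 5 mutant genotypes. *Dpys* was near 0, with at most 5 reads in any embryo.

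The log2 fold change to WT was lowest in *Kat6a*-/- embryos for 4 members and in the double point mutant for *Dpysl4*. *Crmp1*, *Dpysl3*, *Dpysl4* and *Dpysl5* were lower than in WT in *Kat6a*-/- embryos, by 0.24 to 0.42 on the log2 scale. *Crmp1*, *Dpysl3* and *Dpysl4* were lower in the double point mutant, and the values in the single point mutants were close to WT. In *Kat6b*-/- the log2 fold change was -0.29 for *Dpysl4*, -0.19 for *Crmp1*, -0.17 for *Dpysl5*, -0.13 for *Dpysl3* and -0.01 for *Dpysl2*. *Dpysl2* differed least from WT among the 5 in *Kat6a*-/-, *Kat6b*-/- and double point mutant embryos. Libraries of the 5 comparisons with WT share the same 4 WT embryos, so that these comparisons are not independent. Levels are CPM, the read count of a gene relative to the library total after TMM scaling, and log2 fold changes are from a limma model with 4 surrogate variables. In whole embryos, fewer cells of a type and less RNA per cell cannot be told apart.

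**Figure D1:**
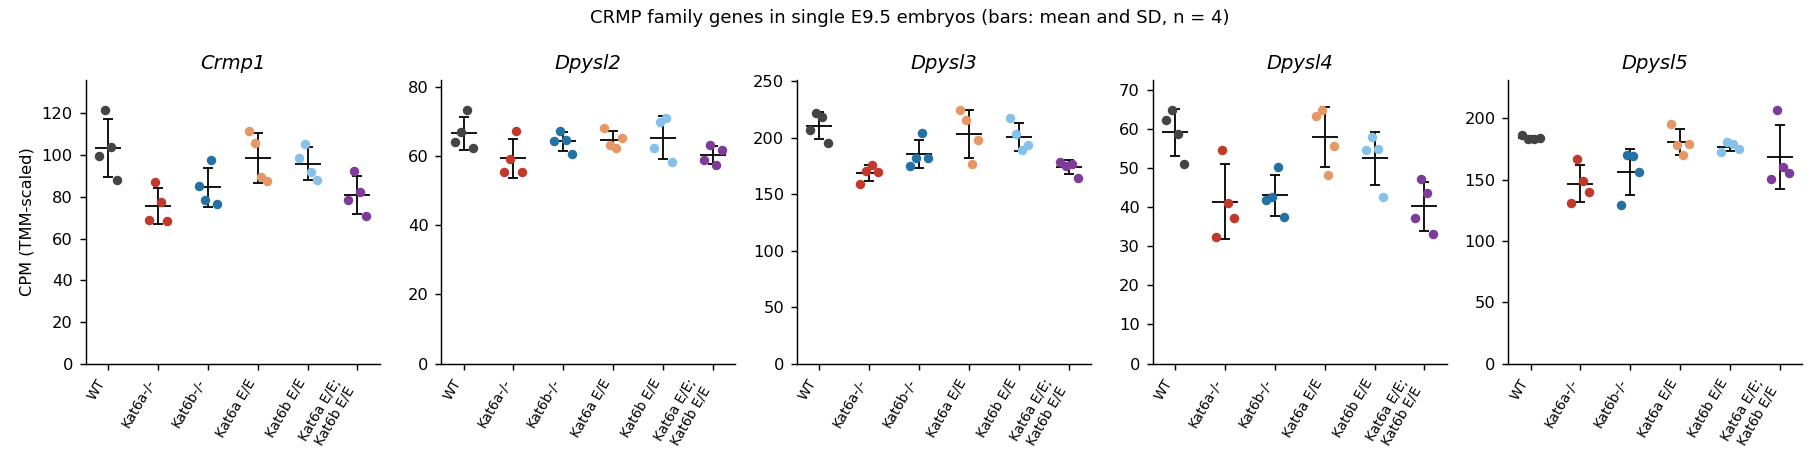
CPM (vertical axes, from 0) of each member in each of the 24 E9.5 embryos, grouped by genotype along the horizontal axes, with points for single embryos and bars for the mean and SD of 4. The *Kat6a*-/- embryos lie below all WT embryos for *Crmp1*, *Dpysl3* and *Dpysl5*, whereas for *Dpysl2* every genotype overlaps WT.

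*Crmp1*, which takes part in semaphorin 3A signalling and neuronal migration, was at 122, 104, 99.8 and 88.2 CPM in the WT embryos. The *Kat6a*-/- embryos were at 87.1, 77.4, 69.1 and 68.6 CPM. All 4 *Kat6a*-/- embryos lay below all WT embryos, the closest pair differing by little, and the log2 fold change was -0.42 ± 0.053 (SE). In *Kat6b*-/- it was at 97.5, 85.3, 78.4 and 76.7 CPM (log2 fold change -0.19 ± 0.053), and 1 of these embryos lay within the WT range. Double point mutant embryos were at 92.6, 82.4, 78.3 and 70.6 CPM (-0.31 ± 0.054), again with 1 embryo within the WT range. The *Kat6a* E/E embryos were at 112, 106, 89.3 and 87.7 CPM (-0.09 ± 0.050). The *Kat6b* E/E embryos were at 106, 98.7, 91.8 and 87.9 CPM (-0.09 ± 0.052). Both single point mutants had 3 embryos within the WT range and 1 just below it.

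*Dpysl3*, an actin-binding member of growth cones and the most abundant of the family, was at 222, 218, 207 and 196 CPM in WT. In *Kat6a*-/- it was at 176, 171, 169 and 159 CPM (-0.32 ± 0.051), and in the double point mutant at 179, 177, 175 and 165 CPM (-0.25 ± 0.052). Both groups lay wholly below WT, with a gap wider than the spread within either mutant group. The *Kat6b*-/- embryos were at 204, 182, 182 and 175 CPM (-0.13 ± 0.051), 3 of them below WT. The *Kat6a* E/E embryos were at 225, 216, 198 and 177 CPM (-0.06 ± 0.049). They reached from above the highest WT embryo down to just above the highest *Kat6a*-/- embryo. The *Kat6b* E/E embryos were at 217, 204, 194 and 189 CPM (-0.07 ± 0.050), 2 within the WT range and 2 below it.

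*Dpysl4*, a growth cone protein and the least abundant member by read count, was at 64.7, 62.2, 58.7 and 50.9 CPM in WT. *Kat6a*-/- embryos were at 54.7, 41.0, 37.3 and 32.4 CPM (-0.42 ± 0.066). Replicate 2, the highest of these, lay within the WT range. *Kat6b*-/- embryos were at 50.2, 42.6, 41.8 and 37.4 CPM (-0.29 ± 0.066) and double point mutant embryos at 47.1, 43.5, 37.3 and 33.1 CPM (-0.45 ± 0.068). In both genotypes every embryo lay below every WT embryo, and their mean CPM, 43.0 and 40.3, were close to the 41.3 of *Kat6a*-/-. The *Kat6a* E/E embryos were at 64.8, 63.2, 55.6 and 48.2 CPM (-0.08 ± 0.062). The *Kat6b* E/E embryos were at 58.1, 54.9, 54.5 and 42.5 CPM (-0.14 ± 0.064). Both groups overlapped WT, each with 1 embryo below it.

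*Dpysl5*, which counteracts the outgrowth-promoting action of *Dpysl2* and shapes dendrites, was at 186, 184, 184 and 183 CPM in WT, a far narrower spread than that of the other members. Among *Kat6a*-/- embryos it was at 167, 149, 140 and 131 CPM (-0.24 ± 0.047), and in *Kat6b*-/- at 169.9, 169, 156 and 129 CPM (-0.17 ± 0.047). All 8 null embryos lay below WT. The double point mutant was at 207, 161, 156 and 151 CPM (-0.14 ± 0.048). Replicate 2 lay above all WT embryos and the other 3 below them. In the model this embryo had a leverage, the weight of its own value in its fitted value, of 0.88 on a scale that ends at 1. The leverage of the other embryos was 0.263 to 0.595. Little of the distance of replicate 2 from its group therefore enters the SE, which holds for every member. The *Kat6a* E/E embryos were at 195, 179, 179 and 169.9 CPM (-0.01 ± 0.045), on both sides of WT. The *Kat6b* E/E embryos were at 181, 179, 175 and 173 CPM (-0.04 ± 0.046), which is wholly below the narrow WT range.

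*Dpysl2*, which carries tubulin to the growing axon, was at 73.3, 66.8, 64.0 and 62.2 CPM in WT. In *Kat6a*-/- it was at 67.3, 59.2, 55.4 and 55.4 CPM (-0.13 ± 0.063), and in the double point mutant at 63.1, 61.6, 58.8 and 57.4 CPM (-0.12 ± 0.064). Both groups overlapped WT, and the 95% intervals of these log2 differences, -0.26 to 0.0012 and -0.26 to 0.0075, leave room for a decrease as large as that of *Dpysl5*. The *Kat6b*-/- embryos were at 67.4, 64.6, 64.4 and 60.5 CPM (-0.01 ± 0.063). The *Kat6a* E/E embryos were at 68.0, 65.3, 63.1 and 62.4 CPM (-0.04 ± 0.061), and the *Kat6b* E/E embryos at 70.9, 69.9, 62.2 and 58.1 CPM (-0.0045 ± 0.063). These 3 groups overlapped WT.

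**Figure D2:**
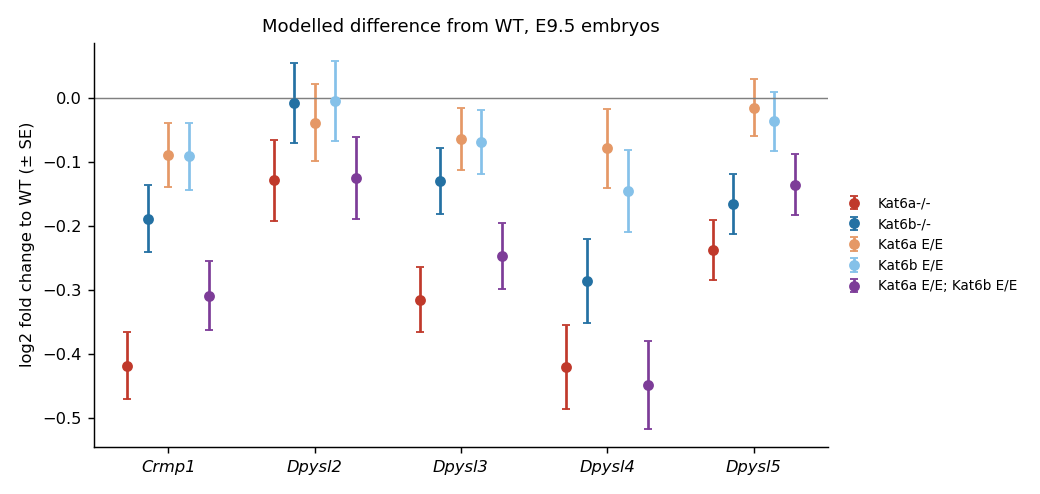
Log2 fold change to WT (vertical axis) of each member (horizontal axis) in the 5 mutant genotypes, as points with bars for the SE of the limma model (4 embryos per genotype). The points of *Kat6a*-/- are lowest for *Crmp1* and *Dpysl4*, at -0.42 each, that of *Dpysl4* in the double point mutant is at -0.45, and *Dpysl2* lies nearest to 0 in both null genotypes.

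Of the 5 members, 4 passed FDR<0.05 as lower in *Kat6a*-/- compared with WT, all but *Dpysl2*, where 1.38% of the 14183 genes tested did so. In 3 of the 5 the *Kat6a*-/- and WT embryos did not overlap (6.49% of all genes). The double point mutant had 3 members called lower, *Crmp1*, *Dpysl3* and *Dpysl4* (1.57% of all genes), with 2 not overlapping (3.94%). *Kat6b*-/- had 1, *Dpysl4* (0.338%), with 2 not overlapping (3.44%). No member was called in *Kat6a* E/E (0.24% of all genes lower) or *Kat6b* E/E (0% lower), by limma, edgeR or DESeq2. At an unadjusted p under 0.05 in limma there were 0 members in the former (1421 of all genes) and 1, *Dpysl4*, in the latter (626 of all genes). In *Kat6a*-/-, *Kat6b*-/- and the double point mutant there were 4 each, all but *Dpysl2*, beside 2399, 1713 and 2581 of all genes. In *Kat6a* E/E 0 members were without overlap with WT on the lower side (2.62% of all genes), and in *Kat6b* E/E 1 was, *Dpysl5* (1.14%). Because the members were chosen in these contrasts, nothing is read from these counts against the background. The shares of all genes also rest on single libraries. In *Kat6a*-/- 375 genes were called in either direction, and 102 in the fit without WT replicate 2. In the double point mutant 413 were called, and 115 in the fit without WT replicate 3. How many genes these fits had in common was not counted. The median log2 fold change of the 5 was -0.32 in *Kat6a*-/-, -0.25 in the double point mutant, -0.17 in *Kat6b*-/-, -0.07 in *Kat6b* E/E and -0.06 in the *Kat6a* point mutant, beside medians over all genes between -0.0043 and 0.00054. No member was called higher in any comparison with WT, where 1.26% of all genes were in *Kat6a*-/-, 1.34% in the double point mutant, 0.169% in *Kat6b*-/-, 0.0353% in *Kat6a* E/E and 0% in the *Kat6b* point mutant.

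The calls rested on the surrogate variables, which take up variation shared by many genes, whereas the log2 fold changes to WT of *Kat6a*-/- kept their sign. Without surrogate variables 1 member (*Dpysl3*) was called in *Kat6a*-/- and 0 in the double point mutant, and in a model of only the 8 libraries compared the counts were 2 and 0. Across 11 alternative models the log2 fold change in *Kat6a*-/- ranged from -0.43 to -0.39 for *Crmp1*, from -0.32 to -0.30 for *Dpysl3*, from -0.51 to -0.42 for *Dpysl4*, from -0.33 to -0.24 for *Dpysl5* and from -0.16 to -0.11 for *Dpysl2*. The single call in *Kat6b*-/- was not stable. The omission of any 1 library other than *Kat6b*-/- replicate 1 left 0 members called there. With WT replicate 1 left out, *Dpysl5* was no longer called in *Kat6a*-/-, and with WT replicate 3 left out, *Dpysl3* was no longer called in the double point mutant. *Dpysl4* in *Kat6a*-/- moved furthest, from -0.42 to -0.56, when *Kat6a*-/- replicate 2 was left out, and stayed called.

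**Figure D3:**
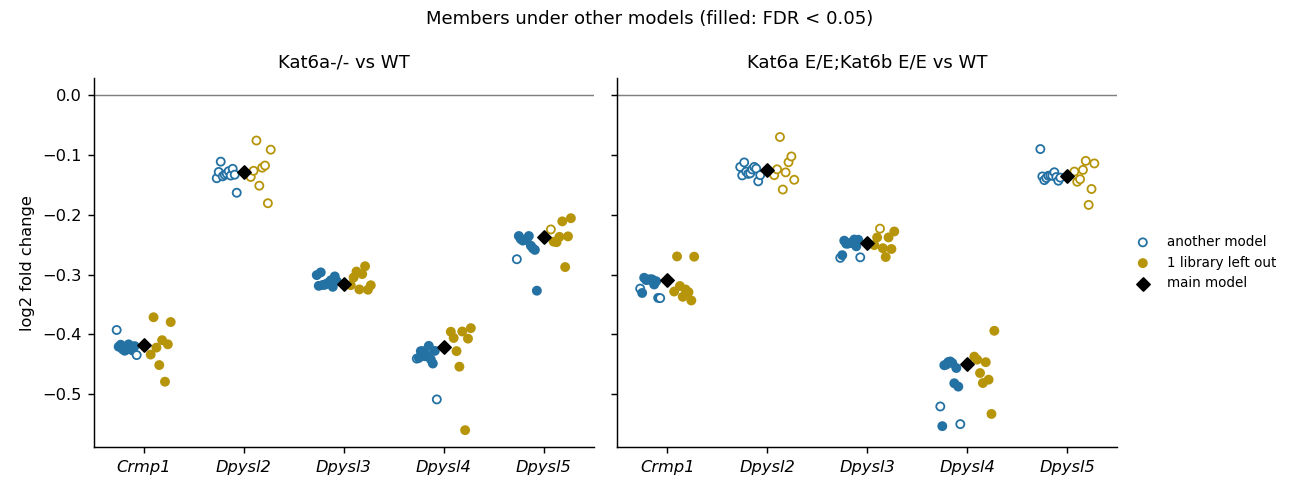
Log2 fold change to WT (vertical axis) of each member (horizontal axis) in *Kat6a*-/- (left) and the double point mutant (right), from the main model (black), 11 other models (blue) and the omission of each of 8 libraries (yellow), filled where FDR<0.05. For *Kat6a*-/- every point is below 0 and *Dpysl2* has no filled point. For the double point mutant the 3 called members have open points in the model without surrogate variables and in that of only the 8 libraries compared.

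In the embryos, 3 litters held both a WT and a mutant embryo. In the litter with WT replicate 1 and *Kat6a*-/- replicate 2, the log2 ratio of CPM was negative for all 5 members, from -0.28 (*Dpysl3*) to -0.11 (*Dpysl2*), with -0.20 for *Crmp1*, -0.19 for *Dpysl4* and -0.16 for *Dpysl5*. In the litter with WT replicate 3 and *Kat6b*-/- replicate 2 it was also negative for all 5, from -0.46 (*Dpysl4*) and -0.40 (*Crmp1*) to -0.11 (*Dpysl5*). In the litter with WT replicate 2 and *Kat6a* E/E replicate 1 the ratios lay between -0.12 (*Crmp1*) and 0.093 (*Dpysl5*). Each of these is 1 pair of embryos and has no error.

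Mutant genotypes were also compared with each other. *Kat6a* E/E exceeded *Kat6a*-/- in all 5 members, by 0.33 ± 0.055 for *Crmp1*, 0.25 ± 0.053 for *Dpysl3*, 0.34 ± 0.068 for *Dpysl4*, 0.22 ± 0.048 for *Dpysl5* and 0.09 ± 0.065 for *Dpysl2* on the log2 scale. The first 4 passed FDR<0.05, where 0.973% of all genes were called higher. When *Kat6a* E/E replicate 1 was left out, 2 members were called, *Crmp1* and *Dpysl4*, and *Dpysl5* was also lost without *Kat6a*-/- replicate 1 or 4. The double point mutant was below *Kat6a* E/E in all 5, from -0.37 ± 0.072 for *Dpysl4*, the one called (0.0212% of all genes lower), and -0.22 ± 0.058 for *Crmp1* to -0.09 ± 0.068 for *Dpysl2*. The call of *Dpysl4* was lost when any of 4 libraries was left out, *Kat6a* E/E replicate 1 or 4 or double point mutant replicate 2 or 4, and without *Kat6a* E/E replicate 3 the count was 2.

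Log2 differences of the double point mutant from *Kat6a*-/- ranged from -0.03 ± 0.073 (*Dpysl4*) to 0.11 ± 0.057 (*Crmp1*), with 0.10 ± 0.050 for *Dpysl5*. By limma (0.00705% of all genes higher, 0% lower), edgeR or DESeq2, 0 members were called. At an unadjusted p under 0.05 in limma there were 0 members, beside 1479 of all genes. The 95% intervals of these differences reached from -0.18 to 0.23. *Kat6a*-/- was below *Kat6b*-/- in all 5, with *Crmp1* (-0.23 ± 0.054) the one called (0.677% of all genes lower), followed by *Dpysl3* at -0.19 ± 0.052. That count was 0 when any of 6 libraries was left out, all but *Kat6a*-/- replicate 2 and *Kat6b*-/- replicate 1, and 2 without the latter. *Kat6b* E/E exceeded *Kat6b*-/- in all 5, by 0.0031 ± 0.064 (*Dpysl2*) to 0.14 ± 0.067 (*Dpysl4*), with 0 called (0.0141% of all genes higher) by limma, edgeR or DESeq2. At an unadjusted p under 0.05 in limma there were 2 members, *Dpysl4* and *Dpysl5*, beside 1253 of all genes.

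Whether the double point mutant differed from the sum of both single point mutations was read from the interaction contrast. It was negative for all 5 members, with -0.23 ± 0.096 for *Dpysl4*, -0.13 ± 0.077 for *Crmp1*, -0.12 ± 0.074 for *Dpysl3*, -0.08 ± 0.068 for *Dpysl5* and -0.08 ± 0.092 for *Dpysl2*. No member was called by limma, edgeR or DESeq2, nor was any gene by limma (0% in either direction). At an unadjusted p under 0.05 there were 910 genes, 1 of them a member (*Dpysl4*).

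The balance of the paralogs was read from ratios within a library, in which library scaling cancels. The ratio of *Dpysl4* to *Dpysl2* CPM was 0.890 ± 0.0928 (SD, n=4) in WT, from 0.801 to 0.972. It was 0.669 ± 0.0735 in *Kat6b*-/-, with a highest value of 0.778, and 0.669 ± 0.104 in the double point mutant, with a highest value of 0.759. Both lay wholly below WT. The ratio in *Kat6a*-/- was 0.698 ± 0.156, and its highest embryo, at 0.925, lay within WT. The ratios of *Crmp1*, *Dpysl3* and *Dpysl5* to *Dpysl2* overlapped between WT and *Kat6a*-/-, for *Crmp1* with 1.42 to 1.82 in WT and 1.15 to 1.47 in *Kat6a*-/-. The mean ratios of these 3 members were nevertheless lower in *Kat6a*-/-. They were 1.55 ± 0.190 in WT and 1.28 ± 0.138 in *Kat6a*-/- for *Crmp1*, and 3.17 ± 0.146 and 2.85 ± 0.184 for *Dpysl3*. For *Dpysl5* they were 2.78 ± 0.205 and 2.48 ± 0.261. Whether *Dpysl2* differs from these 3 members in its response was not tested, and the overlap of ranges does not settle it. By length-scaled share, *Dpysl4* made up 16.1% to 18.1% of the family RPKM in WT and 12.8% to 15.3% in the double point mutant, while *Dpysl2* made up 9.46% to 10.9% and 10.4% to 12.5%.

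Across the 24 embryos, each gene was centred on its WT mean, and the genes with the smallest root mean square difference in log2 CPM to each member were listed among 14182 genes. For *Crmp1* these were *Trp53i11*, *Syt11* and then *Dpysl3*, with differences of 0.123 to 0.125. *Dpysl4* took place 26, *Dpysl5* place 40 and *Dpysl2* place 343 in that order. For *Dpysl3* the nearest were *Vash1*, *Cplx2* and *Sufu* (0.0962 to 0.102), for *Dpysl4* *Adgrb1*, *Gprin1* and *Lhfpl4* (0.12 to 0.125), and for *Dpysl5* *Septin3*, *Zswim5* and *Tox3* (0.0778 to 0.093). *Dpysl2* was nearest to *Usp19*, *Cic* and *Man2a2* (0.0669 to 0.073), and among the other members *Dpysl3* came closest to it, at place 1999. These lists rest on the same 24 libraries that chose the members and are descriptions.

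The genes of the pathway around the family gave few calls, and those of the ligands were in the opposite direction. Of 7 class 3 semaphorin genes, the secreted ligands, 2 rose in *Kat6a*-/-, *Sema3c* (0.37 ± 0.070, FDR=0.00523 in limma) and *Sema3a* (0.30 ± 0.067, FDR=0.0173), and 0 fell, where 1.26% of all genes rose. In the double point mutant 2 rose, *Sema3e* (0.67 ± 0.14) and *Sema3c* (0.33 ± 0.069), both at FDR=0.0115 (1.34% of all genes). The median log2 fold change of the 7 was 0.32 in *Kat6a*-/- and 0.23 in the double point mutant. For *Kat6b*-/- this ligand median was 0.22, and the *Kat6b* point mutant had 0.077. *Kat6a* E/E embryos, without any called member, reached 0.23 as well. A raised ligand median was thus not limited to genotypes with members called lower. Of the 11 semaphorin receptor genes fitted, neuropilins, plexins and the co-receptor *L1cam*, 0 were called in *Kat6a*-/- and 1 fell in the double point mutant, *L1cam* (-0.37 ± 0.097, FDR=0.0369), where 1.38% and 1.57% of all genes fell. Of 14 kinases and phosphatases that act on these proteins, 0 were called in *Kat6a*-/-, *Kat6b*-/- or the double point mutant.

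Among 19 genes of partners in transport and actin remodelling, 1 fell in *Kat6a*-/-, the kinesin heavy chain *Kif5c* (-0.24 ± 0.061, FDR=0.0334), and 1 in the double point mutant, *Cyfip2* of the WAVE actin complex (-0.23 ± 0.065, FDR=0.0484), beside the same 1.38% and 1.57% of all genes. Of 16 genes of axonal microtubule proteins, through which this family acts on the axon, 2 fell in *Kat6a*-/- (1.38% of all genes), the beta tubulin *Tubb2b* (-0.23 ± 0.042, FDR=0.00431) and the tubulin-binding stathmin *Stmn3* (-0.83 ± 0.21, FDR=0.0336). In *Kat6b*-/- 3 fell (0.338% of all genes), all beta tubulins, *Tubb2b* (-0.30 ± 0.043, FDR=0.00321), *Tubb2a* (-0.34 ± 0.058, FDR=0.00474) and *Tubb3* (-0.41 ± 0.084, FDR=0.0316). In the double point mutant 2 fell (1.57% of all genes), *Tubb2a* (-0.28 ± 0.058, FDR=0.0107) and *Tubb2b* (-0.195 ± 0.043, FDR=0.0145). The median log2 fold change of the 16 was -0.23 in *Kat6a*-/-, -0.19 in *Kat6b*-/- and -0.10 in the double point mutant. These counts turned on single libraries: over the omission of each library, 1 to 4 ligands, 0 to 2 partners and 1 to 2 microtubule genes were called in *Kat6a*-/-, and 0 to 2 ligands, 0 to 1 receptors, 0 to 1 partners and 0 to 2 microtubule genes in the double point mutant. In *Kat6a*-/- 1 ligand was called without WT replicate 1 or 2 and 4 without *Kat6a*-/- replicate 2, no partner without any 1 library other than WT replicate 4 and *Kat6a*-/- replicate 2, which gave 1 and 2, and 1 microtubule gene without any 1 library other than the same pair. In the double point mutant 1 ligand was called without WT replicate 2 and 0 without WT replicate 3, no receptor without any 1 library other than WT replicate 4 and double point mutant replicate 1, no partner without any 1 library other than WT replicate 4, and 1 and 0 microtubule genes without WT replicates 1 and 2. In the main model none of these lists had a call in *Kat6a* E/E or *Kat6b* E/E, and of the 5 pyrimidine breakdown genes 3 were fitted and 0 were called. Of these 5, *Dpys* alone was compared with the family in sequence, and it was not among the genes fitted. All of these lists were chosen with earlier results of these data known.

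Summed levels of neural progenitor markers were below those of WT in every *Kat6a*-/-, *Kat6b*-/- and double point mutant embryo, while sums of neuron markers overlapped with WT. The 25 neuron markers summed to 432 to 760 CPM in WT, 391.5 to 645 in *Kat6a*-/-, 388 to 628 in *Kat6b*-/-, 399 to 576 in the double point mutant, 553 to 907 in *Kat6a* E/E, and 486 to 667 in the *Kat6b* point mutant. All 25 were detected in each genotype. Some of the 25, *Stmn3* and *Tubb3* among them, also stood in the list of axonal microtubule proteins, so that their calls are counted in both lists. Of the 25, 5 fell and 0 rose in *Kat6a*-/- (1.38% and 1.26% of all genes), among them *Ebf3* (-0.31 ± 0.073, FDR=0.0214), *Elavl4* (-0.48 ± 0.12, FDR=0.0283), *Stmn3* and *Ina* (-0.61 ± 0.16, FDR=0.043), in *Kat6b*-/- 1 fell (*Tubb3*, beside 0.338% of all genes), and in the double point mutant 0 (1.57%). Without WT replicate 1, 2 or 3 or *Kat6a*-/- replicate 1, 0 neuron markers were called in *Kat6a*-/-, and 2 and 3 without *Kat6a*-/- replicates 3 and 4. In *Kat6b*-/- 0 neuron markers were called without any 1 of the WT libraries or without *Kat6b*-/- replicate 2, 3 or 4. The 15 neural progenitor markers summed to 1530 to 1655 CPM in WT, 1055 to 1380 in *Kat6a*-/- and 1291 to 1426 in the double point mutant, and to 1169 to 1453 in *Kat6b*-/-, all 3 without overlap with WT, and to 1412 to 1676 in *Kat6a* E/E, and 1432 to 1664 in the *Kat6b* point mutant. Of the 15, 9 fell and 0 rose in *Kat6a*-/- (1.38% of all genes fell), with *Nes* (-0.53 ± 0.077, FDR=0.00246), *Notch1* (-0.31 ± 0.057, FDR=0.00412), *Sox3* (-0.47 ± 0.084, FDR=0.0059) and *Sox2* (-0.33 ± 0.069, FDR=0.0151) first. In the double point mutant 2 fell (1.57% of all genes), *Notch1* (-0.27 ± 0.058, FDR=0.0143) and *Msi1* (-0.19 ± 0.047, FDR=0.0287). In *Kat6b*-/- 0 of the 15 were called (0.338% of all genes fell), although the sums did not overlap with WT. The count of progenitor markers in *Kat6a*-/- was 3 without WT replicate 1 or 2 and 5 without WT replicate 3 or *Kat6a*-/- replicate 3. That in the double point mutant was 0 without WT replicate 2 or 3 or double point mutant replicate 2, and 1 without WT replicate 1 or double point mutant replicate 4.

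Set beside these markers, the family overlapped between WT and every mutant genotype. The summed CPM of the 5 members per summed CPM of the progenitor markers was 0.390 ± 0.0102 in WT, 0.411 ± 0.0177 in *Kat6a*-/-, 0.399 ± 0.0207 in *Kat6b*-/-, 0.386 ± 0.0175 in the double point mutant, 0.383 ± 0.0172 in *Kat6a* E/E, and 0.389 ± 0.0291 in the *Kat6b* point mutant (SD, n=4). Per summed neuron marker it was 1.03 ± 0.217 in WT, 1.01 ± 0.136 in *Kat6a*-/-, 1.17 ± 0.182 in *Kat6b*-/- and 1.05 ± 0.124 in the double point mutant. It was 0.871 ± 0.157 in *Kat6a* E/E and 1.00 ± 0.103 in the *Kat6b* point mutant. WT replicate 4, which had the lowest neuron marker sum of its group, 432 CPM, was also lowest in *Crmp1*, *Dpysl2*, *Dpysl3* and *Dpysl4*, and *Kat6a*-/- replicate 2, with the highest sum of its group, was highest in *Crmp1*, *Dpysl4* and *Dpysl5*. The part of neural cell number in the differences of the members was not tested.

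**Figure D4:**
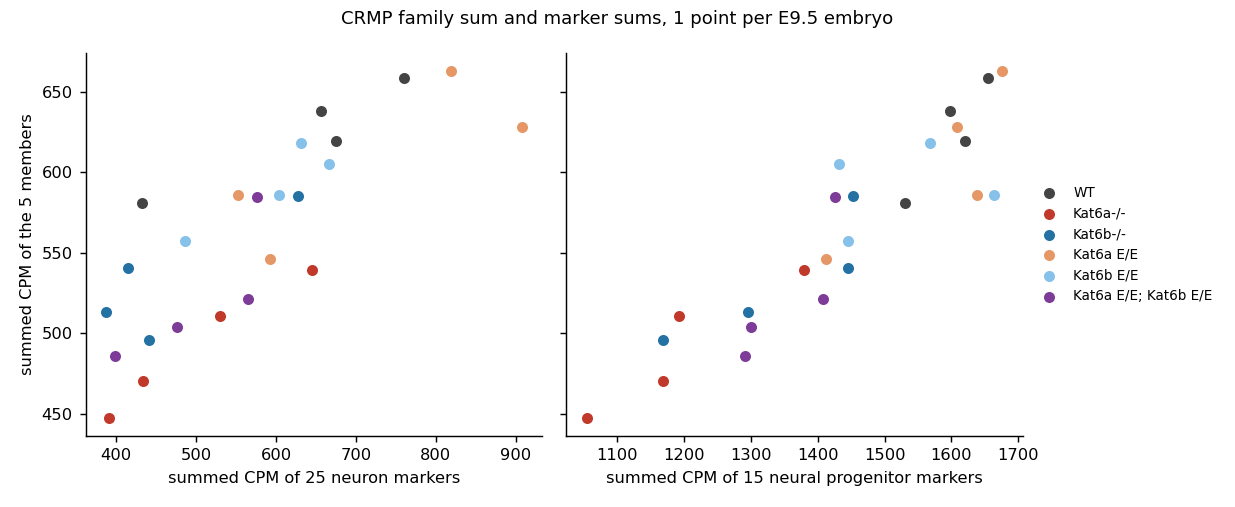
Summed CPM of the 5 members (vertical axis) in each of the 24 E9.5 embryos, coloured by genotype, against the summed CPM of 25 neuron markers (left) and 15 neural progenitor markers (right). Embryos with a low family sum, among them all 4 *Kat6a*-/- embryos, also have low progenitor sums, 1055 to 1380 CPM against 1530 to 1655 in WT.

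Other cell types were checked in the same way. Of 10 neural crest and peripheral glia markers, 2 fell in *Kat6a*-/- (1.38% of all genes), among them *Ednrb* (-0.50 ± 0.11, FDR=0.0153), and the sum was 290 to 371 CPM against 344 to 367 in WT. That count was 0 without WT replicate 1 or 2 and 1 without *Kat6a*-/- replicate 4. Of 11 cardiomyocyte markers 3 rose in *Kat6a*-/- (1.26% of all genes), among them *Myl3* (0.59 ± 0.11, FDR=0.00744), and 2 in the double point mutant (1.34%). In *Kat6a*-/- this count was 0 without WT replicate 2 or 3 and 1 without WT replicate 1 or 4 or *Kat6a*-/- replicate 3. In the double point mutant it was 0 without WT replicate 3 and 1 without WT replicate 2 or 4 or double point mutant replicate 2 or 4. Of 10 primitive erythroid markers 0 were called, and their sum ranged from 4133 to 6401 CPM in WT and from 4949 to 11220 in *Kat6a*-/-. The part of these cells in the values of the members was not tested.

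The counts assigned to genes were 8401990 to 23339359 per embryo and 12270376 to 59216547 per LSK library, so that the lowest count of a member in any embryo, 344 for *Dpysl4*, was well above the limit set by counting. *Kat6a* was at 169 to 186 CPM in WT and 160 to 171 in *Kat6a*-/-, and *Kat6b* at 38.2 to 42.6 CPM in WT and 52.0 to 58.3 in *Kat6b*-/- (log2 fold change 0.41 ± 0.065, FDR=0.00442 in limma). Counts per gene include the exons that remain in the cfd and dec alleles and therefore do not check the deletions. The embryos expressed neural, erythroid and cardiac markers, and the LSK libraries carried their labels' markers, with 11 LSK genes such as *Kit* summing to 1458 to 2427 CPM in WT LSK.

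The LSK libraries were not used to choose the family and served to ask whether it responds in blood progenitors. In WT LSK cells *Dpysl2* was the main member, at 9.51 ± 1.20 CPM and 1.89 ± 0.239 RPKM, against 13.2 RPKM in WT embryos. Both sets were scaled separately, so the levels are only set side by side. *Dpysl3* was at 0.753 ± 0.471 CPM, and *Crmp1* at 0.0451 to 0.293 CPM. *Dpysl5* had 13 reads in all 16 libraries together and *Dpysl4* had 3, all in 1 library, where 3 reads, the limit that a count of 0 allows, correspond to 0.0524 to 0.256 CPM. Of the 25 neuron markers, 8 were at 0 in all 4 WT LSK libraries, among them *Nefl*, *Nefm*, *Neurod1*, *Snap25* and *Syt1*, and the 25 summed to 4.87 to 6.70 CPM. Only *Dpysl2* and *Dpysl3* passed the filter on low counts.

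**Figure D5:**
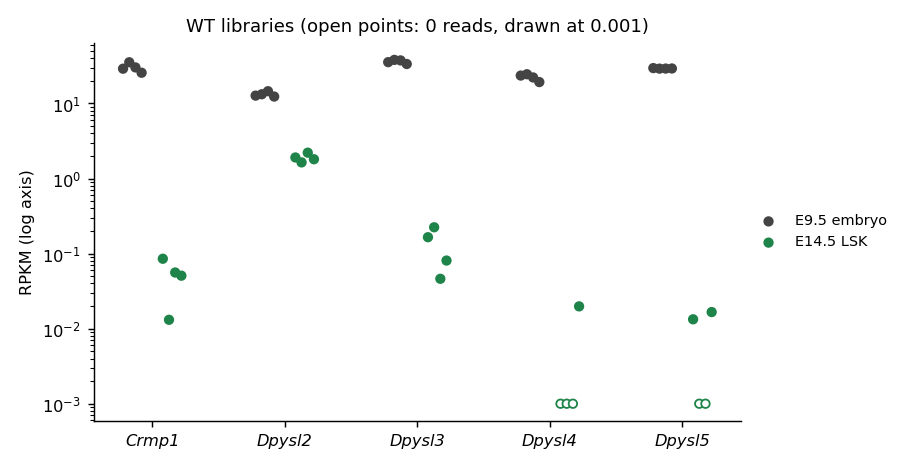
RPKM (vertical axis, log scale) of each member (horizontal axis) in the 4 WT embryos (grey) and the 4 WT LSK libraries (green), 1 point per library, with open points at the bottom for libraries with 0 reads. *Dpysl2* lies at 1.64 to 2.21 RPKM in LSK cells, while *Dpysl4* has reads in 1 of the 4 libraries.

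*Dpysl2* was at 11.1, 9.60, 9.09 and 8.25 CPM in WT LSK, at 11.3, 10.7, 9.86 and 7.26 CPM in *Kat6a* E/E, at 8.38, 6.98, 6.97 and 6.72 CPM in *Kat6b* E/E and at 7.93, 6.13, 5.45 and 4.41 CPM in the double point mutant. The double point mutant lay wholly below WT, and *Kat6b* E/E overlapped it by 1 library. The 16 LSK libraries came from 9 litters, and neither of these 2 genotypes shared a litter with a WT library. WT replicates 1, 2 and 3 came from the same litter, and so did double point mutant replicates 2, 3 and 4. Differences of litter and of genotype can therefore not be told apart within a litter here. Modelled log2 differences from WT were 0.11 ± 0.14 for *Kat6a* E/E (95% interval -0.18 to 0.41, FDR=0.827), -0.33 ± 0.18 in *Kat6b* E/E (-0.72 to 0.056, FDR=0.9998) and -0.36 ± 0.24 in the double point mutant (-0.86 to 0.14, FDR=0.809). At an unadjusted p under 0.05 in limma, 0 of the 2 members passed in any of the 3 comparisons. Of all genes, 1639 did so in *Kat6a* E/E, 364 in *Kat6b* E/E and 896 in the double point mutant. No difference passed FDR<0.05 in limma, and 0 of the 2 members were called by edgeR in any of the 3 comparisons. DESeq2 called 0 as well. It gave no adjusted p for either member in *Kat6b* E/E or for *Dpysl3* in the double point mutant, so these could not be called by it. Over all 13071 genes, 0.627% were called lower in *Kat6a* E/E and 0% with the *Kat6b* mutation alone or both mutations, 0.734% were called higher in *Kat6a* E/E, and 3% of genes did not overlap on the lower side in the double point mutant. These shares turned on single libraries. The 0 genes called in the double point mutant became 2170 without double point mutant replicate 1, 17 without replicate 2, 2 without replicate 3 and 6 without replicate 4. The 0 in *Kat6b* E/E became 96 without WT replicate 4, and the 178 in *Kat6a* E/E became 1 without *Kat6a* E/E replicate 1, 25 without WT replicate 2 and 43 without *Kat6a* E/E replicate 4. In this model the leverage of a library, the weight of its own value in its fitted value, was 0.918 to 0.998 in the 4 double point mutant libraries and 0.977 in *Kat6a* E/E replicate 2, on a scale that ends at 1. The log2 difference of *Dpysl2* in the double point mutant was -0.55 ± 0.26 (FDR=0.668) without surrogate variables, -0.65 ± 0.275 (FDR=0.457) with only the 8 libraries compared and -0.65 ± 0.23 (FDR=0.0661) without double point mutant replicate 1. LSK markers summed to 1195 to 2277 CPM in the double point mutant and 1458 to 2427 in WT, and the erythroid markers to 807 to 9233 and 663 to 2625 CPM. The part of these in the values of *Dpysl2* was not tested.

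*Dpysl3*, at 4 to 29 reads per LSK library, had log2 fold changes of -0.36 ± 0.61 in *Kat6a* E/E, -0.45 ± 0.72 in *Kat6b* E/E and 0.29 ± 0.89 in the double point mutant, with FDR=0.885, 0.9998 and 0.964. The 95% interval in the double point mutant was -1.59 to 2.17, and the sign changed between models. The leverages given for the double point mutant apply here too, and 0 of the 3 differences passed FDR<0.05.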

How the data were processed

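The deposited files hold 1 count per gene and library, the number of read pairs assigned by the authors with featureCounts and a RefSeq annotation after alignment to mm39 with Rsubread. The read length and sequencer differ between the labels and the study's methods. The library kit did not keep strand. Counts are not normalized. All 40 libraries were used and grouped by the genotypes of their labels.

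The model followed the authors' methods. Of 26411 genes, 26359 were matched by identifier to a RefSeq gene table (GRCm38.p6), which gave gene types only. The 52 others were left out. Protein-coding genes without Y-linked genes were kept, filtered with filterByExpr and scaled by TMM (14183 genes at E9.5, 13071 at E14.5). The 4 surrogate variables were estimated with wsva, and voomLmFit was applied with litter as a random block (correlation 0.107 and 0.331) and robust empirical Bayes moderation, separately for each stage. P-values were adjusted over all fitted genes by the Benjamini-Hochberg method (FDR), with FDR<0.05 as the threshold of a call. RPKM used the gene length of the files. R 4.3.3, limma 3.58.1, edgeR 4.0.16 and DESeq2 1.42.0 were used. The procedure was run on simulated counts with known changes. These counts held neither litter effects nor hidden variation shared by genes, so that run did not test the litter block or the surrogate variables.

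The members and the gene lists were chosen with earlier results of these data known. Named are the 5 members, *Kat6a*, *Kat6b*, *Dpys*, of each list at most the 4 called genes with the smallest p per comparison with WT, and the 3 genes most like each member. *Kit* and the markers at 0 in LSK cells are also named, chosen after their values were seen.

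Alternatives were 0, 2 or 6 surrogate variables, no litter block, edgeR quasi-likelihood and DESeq2 tests with surrogate variables, DESeq2 size factors, no filter, all gene types with Y-linked genes, only the 8 libraries compared, a block for replicate number, and omission of each library. Positions and proteins came from GENCODE vM39 on GRCm39 and promoter windows from RefSeq on GRCm38.p6. Reads were not used here. The values of 1 neural crest marker are not reported here.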

Additional observations from a re-analysis of the deposited data

Results flagged for a closer look

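*Dpysl2* in the LSK sample of *Kat6b* E/E replicate 3 was at 8.38 CPM, whereas the other 3 samples of that genotype lay between 6.72 and 6.98 CPM. Its gap to the nearest sample was 0.842 of the range of the group, above the critical value of Dixon's test for 4 samples. Of 38 groups tested, 1 passed, and chance flags about 1 in 20.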

How the results depend on the processing

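Without surrogate variables, the members called were 1 in *Kat6a*-/- and 0 in *Kat6b*-/- and the double point mutant against WT, and 0 in *Kat6a* E/E against *Kat6a*-/-, the double point mutant against *Kat6a* E/E and *Kat6a*-/- against *Kat6b*-/-. With only the 8 libraries compared these counts were 2, 0, 0, 0, 0 and 0. In *Kat6b*-/- against WT, the count was 0 with 2 surrogate variables, edgeR or DESeq2 size factors and 2 with all gene types. In the double point mutant against *Kat6a* E/E it was 3 with 2 surrogate variables and 2 with 6 or with no filter. In *Kat6a*-/- against *Kat6b*-/- it was 0 with 2 surrogate variables and 2 with DESeq2 or no filter. The cause was not tested. With each library left out in turn, the counts in these 6 comparisons, in the order first given, were 3 to 4, 0 to 1, 2 to 3, 2 to 4, 0 to 2 and 0 to 2. In all other comparisons they stayed at 0 under every alternative run, although DESeq2 gave no adjusted p for some of the LSK differences. The interaction could not be fitted with 8 libraries.

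*Dpysl3* in double point mutant LSK cells (0.29) turned to -0.0055 without the litter block, -0.55 in edgeR, -0.61 in DESeq2 and -0.12 with the replicate block. Without WT replicate 4 it was -0.19, and without double point mutant replicates 2, 3 and 4 it was -0.081, -0.11 and -0.043. The range over omissions was -0.19 to 0.46. The gene had 4 to 29 reads per library. The cause was not tested.

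Whether replicate numbers pair the samples was not settled. A correlation of deviations above 0.1 was seen in 17 of 60 same-number pairs of embryos and 8 of 24 of LSK samples. That share was not computed for pairs of different number. The median correlation was 0.0478 for same-number and -0.0179 for other pairs of embryos, and 0.00383 and -0.0251 for LSK samples. With a replicate block 3 members were called in *Kat6b*-/- against WT instead of 1.

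Over all genes, the 375 called in *Kat6a*-/- against WT became 111, 159 and 631 with 0, 2 and 6 surrogate variables, the 413 in the double point mutant 0, 428 and 811, and the 72 in *Kat6b*-/- 0, 29 and 169 (200 with the replicate block, 154 in DESeq2, 3 with 8 libraries). The 39 in *Kat6a* E/E became 14 and 122 with 0 and 6, 66 in DESeq2 and 1 with 8 libraries. The 178 in *Kat6a* E/E LSK cells became 3, 50 and 267, 33 without the litter block, 82 in edgeR, 28 with the replicate block and 0 with 8 libraries. With each library left out in turn, the counts over all genes ranged from 102 to 346 in *Kat6a*-/-, 115 to 502 in the double point mutant, 11 (without WT replicate 4) to 99 in *Kat6b*-/- and 11 to 74 in *Kat6a* E/E. In LSK cells they ranged from 1 to 197 in *Kat6a* E/E, 0 to 96 in *Kat6b* E/E and 0 to 2170 in the double point mutant.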
